A study of Rattus norvegicus with 53 samples.

Results

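Sdc4, Lamb3 and Cldn16 were grouped here as genes of epithelial adhesion, and their levels were followed across 51 whole eyes of outbred Heterogeneous Stock rats. Which cells of the eye express these genes was not measured. These 3 genes of the 32576 deposited were taken by their start positions on Rnor_6.0: Sdc4 (ENSRNOG00000014297) starts at position 160891190 of chromosome 3, Lamb3 (ENSRNOG00000006025) at 112031594 of chromosome 13 and Cldn16 (ENSRNOG00000055138) at 77703255 of chromosome 11. All 3 were chosen from the genes that the study called as having a cis-eQTL, that is, a nearby DNA variant associated with their level, in these same eyes. The study asked which DNA variants are associated with intraocular pressure and with gene expression in the eye. Each eye came from a different rat, extraocular muscle had been removed, and polyA RNA was sequenced. There is 1 group and no treatment contrast. Some rats of the study had self-administered nicotine in other work and had gone through behavioural tests. The labels do not say which of these eyes, if any, came from such rats, nor do they give sex or age. Of 53 eyes sequenced, 2 were removed by the authors and are not analysed here.

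Cells of an epithelium hold on to the matrix beneath them and to each other by different structures, and the 3 genes belong to different ones. Syndecan-4, the product of Sdc4, is a transmembrane proteoglycan that carries heparan sulphate chains and acts with integrins at focal adhesions. Lamb3 encodes the beta 3 chain of laminin-332, the basement membrane laminin that anchors basal epithelial cells, those of the cornea and conjunctiva included, through hemidesmosomes. Claudin-16, the product of Cldn16, is a tight junction protein known best from the kidney, where it takes part in the passage of magnesium between cells.

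The stretches of DNA just upstream of the 3 starts are shown as description only, with no test of a link to the levels. Each is the 250 bases before the RefSeq start on the GRCr8 assembly, read 5′ to 3′ on the gene's strand. This is a later build than that of the counts. Capitals mark 3 motifs, which are the GC box GGGCGG, the TATA box in the form TATAAG, and the cAMP response element TGACGTCA.
Sdc4, chr3:173592924-173593173, minus strand: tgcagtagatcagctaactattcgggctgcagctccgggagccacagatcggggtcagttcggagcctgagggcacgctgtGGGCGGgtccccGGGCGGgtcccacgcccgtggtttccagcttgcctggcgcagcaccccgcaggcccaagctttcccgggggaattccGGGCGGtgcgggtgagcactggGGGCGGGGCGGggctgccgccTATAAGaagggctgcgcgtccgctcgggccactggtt
Lamb3, chr13:107362303-107362552, plus strand: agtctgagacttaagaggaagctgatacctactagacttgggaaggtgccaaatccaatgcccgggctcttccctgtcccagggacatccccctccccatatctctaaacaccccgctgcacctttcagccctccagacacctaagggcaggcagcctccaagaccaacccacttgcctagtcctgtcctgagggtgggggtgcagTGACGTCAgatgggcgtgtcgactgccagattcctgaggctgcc
Cldn16, chr11:87814397-87814646, minus strand: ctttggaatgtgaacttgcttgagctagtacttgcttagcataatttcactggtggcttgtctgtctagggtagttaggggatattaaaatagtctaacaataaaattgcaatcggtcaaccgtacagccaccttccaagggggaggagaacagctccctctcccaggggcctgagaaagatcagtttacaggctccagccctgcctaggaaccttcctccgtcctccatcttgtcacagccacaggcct

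The Sdc4 stretch was 70.0% G and C and held 23 CpG dinucleotides, against medians of 51.2% and 5 over 33465 such windows. It held GGGCGG 5 times, and the last pair of these overlapped by 1 base, from -58 to -53 and from -53 to -48, counted back from the start. TATAAG stood from -37 to -32. The Lamb3 stretch, at 58.4% G and C and 5 CpG, held TGACGTCA from -44 to -37. The Cldn16 stretch, at 49.2% G and C and 3 CpG, held none of these, and TGANTCA (the AP-1 motif) was in none of the 3. Searched on both strands, GGGCGG was in 30.5% of all windows, TATAAG in 7.0%, TGACGTCA in 1.6% and TGANTCA in 6.3%. A match is a string of letters and not a measured binding site.

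Levels were expressed as CPM, the expected count of a gene divided by the total of its eye, times 1000000. Totals ran from 9109084 to 42146827 with a median of 16193478, and the r of the members' levels with the log2 total ran from -0.02 to 0.03 (adjusted permutation p = 0.995 for each). Transcript lengths were not used, so levels are compared between eyes and not between genes. In bulk RNA of a whole eye, fewer cells of a type and less RNA per cell cannot be told apart. The 10 retinal marker genes that could be named were above 0 in every eye, with a summed level of 1430 to 2250 CPM, and 12 of 13 named markers of surface epithelium were above 0 in every eye, with a summed level of 917 to 3140 CPM.

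Sdc4 was the steadiest of the 3. Its lowest eye was at 69.5 CPM, the median at 113 and the highest at 192, with a mean of 115 ± 24.7 (SD, n = 51). The middle of the eyes lay within a 1.32-fold range, from a lower quartile of 96.3 to an upper quartile of 127 CPM. On the log2(CPM + 1) scale the SD was 0.30, near the median of 0.29 for the 200 genes closest to it in mean level. With 931 to 5266 counts per eye, counting error made up 1.18% of its variance.

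Lamb3 varied more, and its highest eyes lay further from the median than its lowest. It ran from 18.3 CPM through a median of 34.6 to 89.9, a 4.92-fold range, with a mean of 37.7 ± 15.2 (SD, n = 51). The quartiles were 29.3 and 42.2 CPM, while the 4 highest eyes stood at 65.3, 76.4, 78.3 and 89.9 CPM. Its log2 SD of 0.50 exceeded those of 88.5% of the 200 genes of nearest level. Counts ran from 268 to 2145, and counting error made up 1.03% of the variance.

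Cldn16 was the most uneven. It was at 0 in 2 eyes, at a median of 3.65 CPM and at 12.4 CPM in the highest, with a mean of 4.59 ± 3.36 (SD, n = 51). The 2 eyes at 0 are eyes 7 and 50 (numbered by the order of the records), where 3 counts, the limit that a count of 0 allows, would be 0.196 and 0.166 CPM. In all, 9 eyes were under 1 CPM, and the widest step between neighbouring eyes on the log2 scale, 0.48, lay just above these, between 0.989 and 1.77 CPM. The quartiles, 2.05 and 7.54 CPM, were 3.68-fold apart. Its log2 SD of 1.03 exceeded those of 96.5% of the 200 genes of nearest level, and this value depends on the pseudocount at such low counts. The median eye had 61 counts, and counting error made up 2.57% of the variance.

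**Figure D1:**
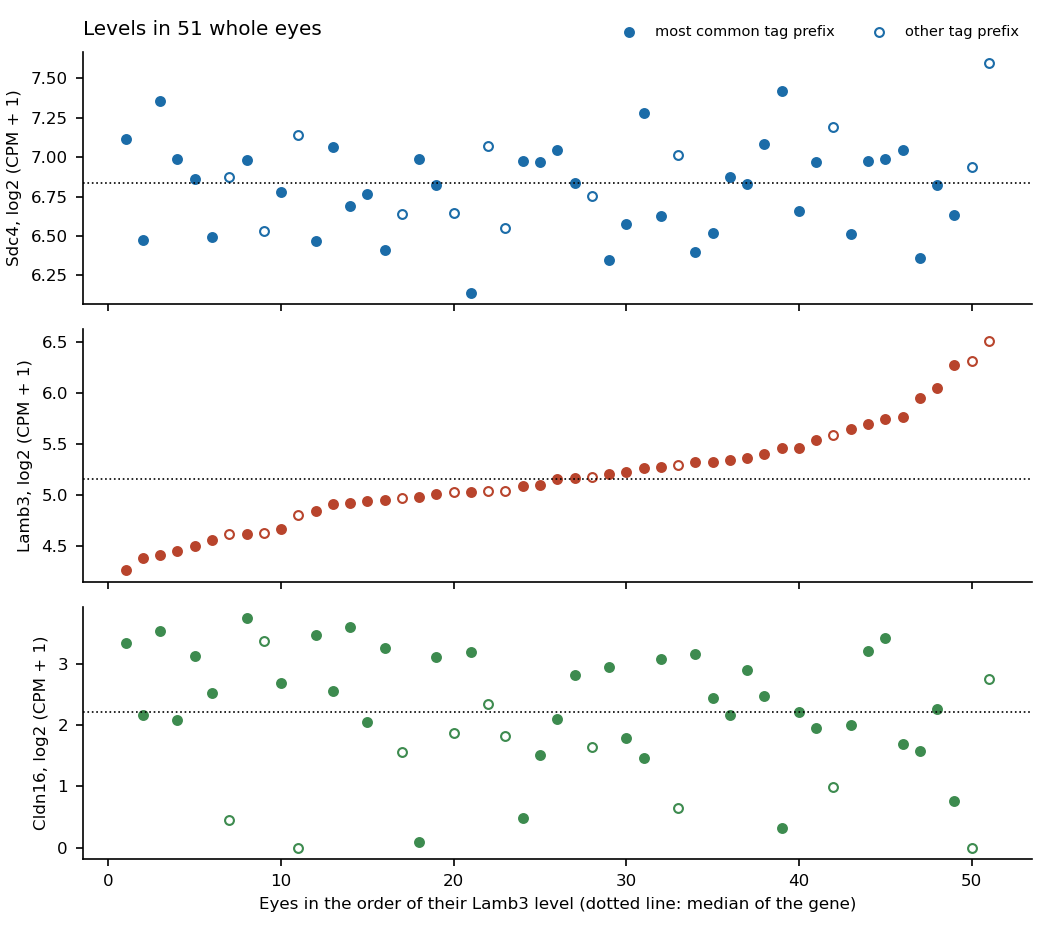
Levels of the 3 genes on the log2(CPM + 1) scale in each of 51 eyes, placed from left to right in the order of Lamb3. Each point is 1 eye, open points are the 12 eyes whose tag does not begin like that of the other 39, and dotted lines are medians. Lamb3 rises to its 4 highest eyes, at 65.3 to 89.9 CPM. Sdc4 shows no slope along this order, and Cldn16 is scattered between 0 and 12.4 CPM.

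The genes were then compared with each other, and no pair moved together beyond the test. Sdc4 and Lamb3 had a Pearson's r of 0.13 (p = 0.377, adjusted p = 0.377) and a Spearman's rho of 0.06 (p = 0.651, adjusted p = 0.651) in permutation tests. For Sdc4 and Cldn16, r was -0.26 (permutation p = 0.0694, adjusted p = 0.104), while rho was -0.22 (p = 0.118, adjusted p = 0.176). For Lamb3 and Cldn16, r was -0.27 (permutation p = 0.0534, adjusted p = 0.104), while rho was -0.28 (p = 0.0447, adjusted p = 0.134). All tests are two-sided, and adjusted values are by Benjamini-Hochberg over the 3 pairs. With the 2 eyes most distant from the first gene's median left out, r was -0.03, -0.28 and -0.25 in the same order.

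The eye tags in the labels begin with the same characters in 39 eyes and with others in 12. The labels do not say what this prefix marks, so it was used as a possible technical split. Within the 39, r was -0.09 for Sdc4 and Lamb3, -0.24 for Sdc4 and Cldn16 and -0.35 for Lamb3 and Cldn16. Within the 12 it was 0.64, -0.15 and -0.06. Eye 44, one of these 12, was the highest in both Sdc4 (192 CPM) and Lamb3 (89.9 CPM). Eye 23 went the other way, with Sdc4 at 163 CPM, the third highest, and Lamb3 at 20.4 CPM, the third lowest. Eye 7 had the next highest Lamb3, 78.3 CPM, with Cldn16 at 0, and eye 10 had the lowest Lamb3, 18.3 CPM, with Cldn16 at 9.08 CPM.

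**Figure D2:**
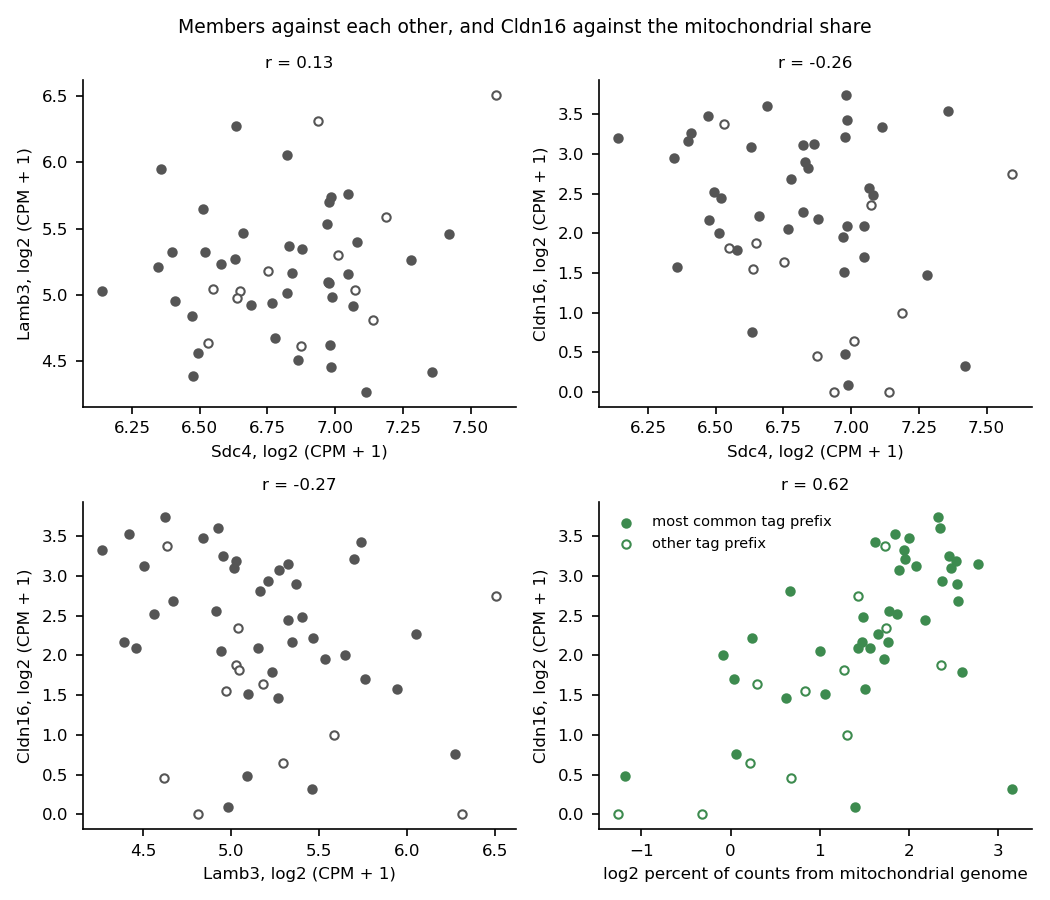
The 3 pairs of genes and, in the last panel, Cldn16 against the share of counts from the mitochondrial genome, all on log2 scales, with 1 point per eye (n = 51) and open points for the 12 eyes of other tag prefix. The pairs of genes form loose clouds with r of 0.13, -0.26 and -0.27, whereas Cldn16 rises with the mitochondrial share (r = 0.62).

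Cldn16 moved with the share of counts that came from the mitochondrial genome, which ran from 0.418% to 8.91% of an eye's counts with a median of 3.15%. Its r with the log2 of that share was 0.62 and its rho 0.62, both with a permutation p of 1e-05, the smallest that 100000 permutations can give, and an adjusted p of 9e-05 over 9 relations with 3 library measures. Without the 2 eyes farthest from the median share r was 0.54, and within the 39 and the 12 eyes it was 0.49 and 0.77. For Lamb3 the same r was -0.30 (permutation p = 0.0294, adjusted p = 0.0882), and for Sdc4 -0.20 (permutation p = 0.162, adjusted p = 0.292). What this share stands for in these eyes was not tested.

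Sdc4 was lower in eyes where more genes were detected. The number of genes above 0 ran from 14729 to 16876, and its r with Sdc4 was -0.38 (permutation p = 0.006, adjusted p = 0.027), with rho = -0.36 (p = 0.00908, adjusted p = 0.0409). Without 2 eyes r was -0.32, and within the 39 and the 12 eyes it was -0.39 and -0.32. The same r was 0.10 for Lamb3 (permutation p = 0.466, adjusted p = 0.7) and 0.28 for Cldn16 (permutation p = 0.0444, adjusted p = 0.0998).

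Between the 12 and the 39 eyes, 35 of 13844 genes (0.253%) differed at a Benjamini-Hochberg adjusted p under 0.05 in limma, a linear model with moderated variances, and 2298 had an unadjusted p under 0.05. None of the 3 genes was among the 35. Cldn16 had a median of 4.59 CPM in the 39 eyes (0.0627 to 12.4) and of 2.02 CPM in the 12 (0 to 9.41), a difference of -0.94 ± 0.31 (SE) on the log2 scale with an unadjusted limma p of 0.0033 and an adjusted p of 0.0939. Sdc4 differed by 0.11 ± 0.10 (SE; adjusted limma p = 0.634) and Lamb3 by 0.09 ± 0.16 (SE; adjusted limma p = 0.848), and the ranges of the groups overlapped for all 3. Between the 11 eyes whose label had been corrected against genotypes and the 40 others, 0 of 13844 genes (0%) passed in limma, with 795 at an unadjusted p under 0.05, and the 3 genes had adjusted p-values of 0.921, 0.871 and 0.973 for Sdc4, Lamb3 and Cldn16.

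The members were next set against the other genes whose median reached 1 CPM, 13843 for each. Sdc4 stood apart from the common patterns. Its r with these genes ran from -0.50 to 0.48, with 84.3% of them within 0.2 of zero, against 36.1% for Lamb3 (r from -0.75 to 0.79) and 44.4% for Cldn16 (r from -0.68 to 0.73). In limma, where each gene was fitted on the level of the member, 0 genes (0% in each direction) were related to Sdc4, 4000 rose with Lamb3 (28.9%) and 1961 fell (14.2%), and 2140 rose with Cldn16 (15.5%) and 2231 fell (16.1%). For Sdc4 the smallest adjusted limma p was 0.739, and 732 genes had an unadjusted p under 0.05.

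**Figure D3:**
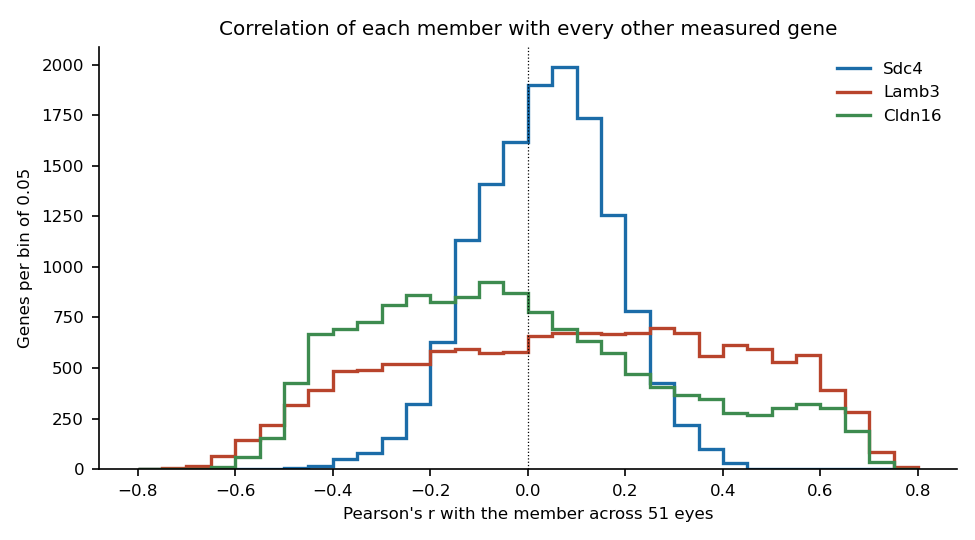
Number of genes in bins of 0.05 of Pearson's r with Sdc4, Lamb3 and Cldn16 across 51 eyes, for 13843 genes each. The line of Sdc4 is narrow around zero (SD 0.14), and those of Lamb3 (SD 0.34) and Cldn16 (SD 0.31) are wide.

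Lamb3 and Cldn16 varied along the axis that carried the most variance over all genes, and Sdc4 hardly did. With principal components taken from the expression of all genes above 0 in any eye, the first component alone carried 46.6% of the variance of Lamb3 and 29% of that of Cldn16, with r of 0.68 and -0.54, and 1.11% of that of Sdc4. The median tested gene had 14.2%. Over 5 components Sdc4 had 6.56% of its variance, a smaller share than all but 0.9% of genes, and over 20 components 43.1%, where a value unrelated to them would have 40%. Lamb3 had 50.7% and 75.5%, and Cldn16 50.1% and 78.8%, beside 52.8% and 79.0% for the median gene. With 5 components as covariates, 0 genes were related to Lamb3 in limma (1382 at an unadjusted p under 0.05) and 0 to Cldn16 (1200). With the mitochondrial share as the covariate, 4749 genes were related to Lamb3 and 0 to Cldn16 (1796 at an unadjusted p under 0.05). Without eyes 7 and 50, the count for Cldn16 was 2748, of which 1789 rose and 959 fell, and within the 39 eyes of the common tag prefix it was 1817, of which 1264 rose and 553 fell. The near-even split of signs for Cldn16 therefore depended on which eyes were used. The split of signs for Lamb3 depended on scaling, with 2634 rising and 2730 falling under median-of-ratios size factors (2450 and 2184 for Cldn16), which moved the median of all genes by up to 0.23 in an eye on the log2 scale.

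Genes of epithelial junctions and adhesion were read against this background. Of 23 on the list, 14 could be named and measured. All 14 were called cis-eQTL genes in these same eyes, and the list was chosen with earlier results of these data known. Whether the list differed from all genes was not tested. With Lamb3, 7 of the 14 rose and 0 fell, beside 28.9% and 14.2% of all genes, and the median r was 0.33 beside 0.11 for all genes. With Sdc4, 0 passed (median r 0.12, all genes 0.04), and with Cldn16, 0 rose and 2 fell, beside 15.5% and 16.1% of all genes (median r -0.15, all genes -0.05).

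The 7 that rose with Lamb3 came from several kinds of contact. Tjap1, a tight junction associated protein, had r = 0.60 (adjusted limma p = 3.01e-05), and the actin-binding Lima1 r = 0.53 (adjusted limma p = 0.000403). Nectin2, an adherens junction receptor, had r = 0.49, the desmosomal cadherin Dsg2 0.44, the integrin-linked parvin Parvb 0.39, E-cadherin (Cdh1) 0.37 and the collagen-binding integrin chain Itga2 0.35. The desmocollins Dsc2 and Dsc3 had r of 0.04 each, the junctional receptor Cxadr 0.04 and the laminin chain Lamb1 0.32, and none of these passed. Within the 39 eyes of the common tag prefix 4 passed (Lamb1, Lima1, Parvb and Tjap1), and there r was 0.17 for Cdh1, 0.27 for Dsg2 and 0.20 for Nectin2, against 0.87, 0.82 and 0.94 in the 12 others. Without the 2 eyes farthest from the Lamb3 median, 44 and 7, 5 passed (Itga2, Lamb1, Lima1, Parvb and Tjap1), and under median-of-ratios scaling 4 (Dsg2, Lima1, Nectin2 and Tjap1). Of all 13843 genes, 2888 rose with Lamb3 within the 39 eyes, 2964 without eyes 44 and 7 and 2634 under median-of-ratios scaling. None of the 14 listed genes passed with 5 components, or component 1, as covariates, and 0 of all genes did.

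The 2 that fell with Cldn16 were Zyx, the focal adhesion protein zyxin, with r = -0.41 (adjusted limma p = 0.0117), and Parvb, with r = -0.37 (adjusted limma p = 0.0272). Neither passed with the mitochondrial share as a covariate or within the 39 eyes, and only Zyx passed without eyes 7 and 50. Of the syndecan and heparan sulphate list, 4 of 10 could be named: the heparan sulphate cleaving enzyme Hpse, the sugar precursor enzyme Ugdh, the matrix glycoprotein Tnc and the GTPase Rhob. None was related to any of the 3 genes, and their r with Sdc4 ran from 0.00 to 0.19. Of the 7 genes that encode the laminin-332 partners of Lamb3 and the hemidesmosome, 0 could be named.

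**Figure D4:**
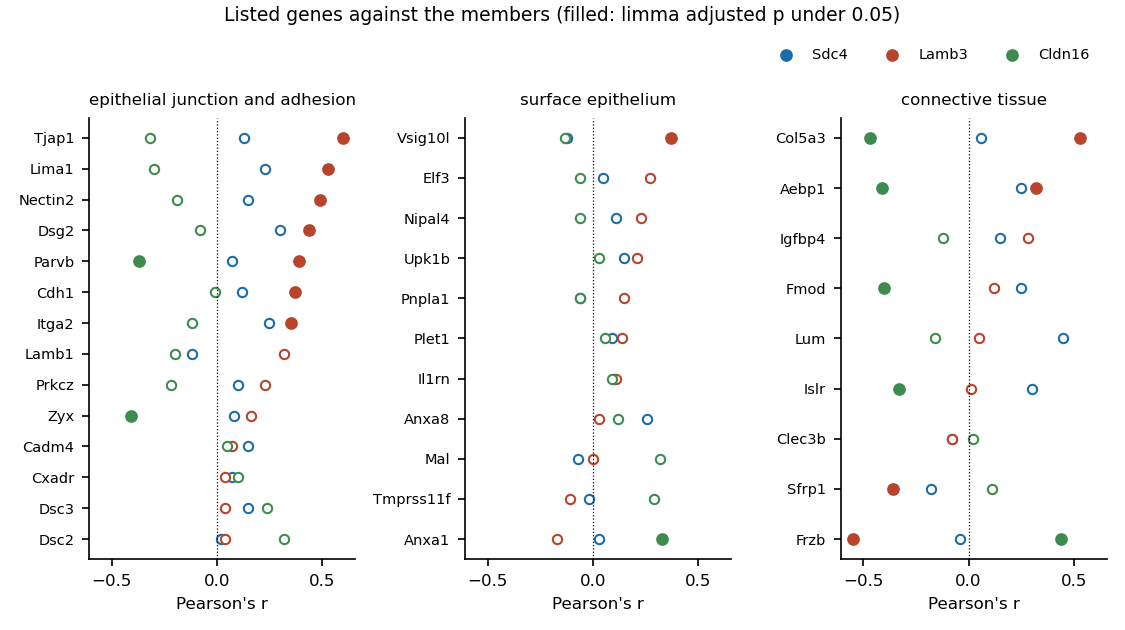
Pearson's r of measured genes of 3 lists with Sdc4, Lamb3 and Cldn16 across 51 eyes, with filled points for an adjusted limma p under 0.05. In the junction list 7 of 14 points of Lamb3 are filled, all to the right, and none is filled for Sdc4 in any list.

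Markers of the tissues that a whole eye holds were looked at in the same way, and their counts are to be read against the shares of all genes, 28.9% rising and 14.2% falling with Lamb3 and 15.5% and 16.1% with Cldn16. Of 12 measured genes of surface epithelium, 1 rose with Lamb3, Vsig10l (r = 0.37, adjusted limma p = 0.0185), and 1 with Cldn16, the annexin Anxa1 (r = 0.33, adjusted limma p = 0.044), and 0 with Sdc4. Within the 39 eyes, 0 of the 12 passed for Lamb3 and 0 for Cldn16, beside 32.1% and 13.1% of all genes. Of 9 measured connective tissue genes, 2 rose (Col5a3 and Aebp1) and 2 fell (Frzb and Sfrp1) with Lamb3. Within the 39 eyes, and likewise without eyes 44 and 7, only Col5a3 rose and only Frzb fell. Of all 13843 genes, 2888 rose and 1551 fell within the 39 eyes, and 2964 and 1410 without eyes 44 and 7. The collagen gene Col5a3 had r = 0.53 and the Wnt antagonist gene Frzb r = -0.55 with Lamb3, and with Cldn16 these were -0.47 and 0.44. With Cldn16, 1 connective tissue gene rose and 4 fell, and 1, Aebp1, passed within the 39 eyes.

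Of 10 retinal neuron genes, 2 rose with Lamb3 and 0 fell, led by Rd3, a photoreceptor protein that holds down guanylate cyclase (r = 0.51), with the glutamate receptor Grm2 at 0.44. Within the 39 eyes and under median-of-ratios scaling Grm2 did not pass, and the complexin Cplx3 fell. With Cldn16, 1 rose, the neurofilament gene Ina (r = 0.44), and 2 fell, Rd3 (r = -0.46) and Cplx4, another complexin (r = -0.45). Within the 39 eyes Ina did not pass with Cldn16, while Rd3 and Cplx4 did. Without eyes 7 and 50, Ina and Rd3 passed and Cplx4 did not. With the mitochondrial share as a covariate none of the 10 passed, nor did any of all genes. Of 5 measured muscle genes, 3 rose with Lamb3 (Synm, Igfn1 and Sbk1, with r from 0.31 to 0.41) and 1 fell with Cldn16 (Igfn1). Sbk1 passed under none of the alternatives run, and only Igfn1 passed with Lamb3 under median-of-ratios scaling. Within the 39 eyes Igfn1 did not pass with Cldn16. The haemoglobin chain Hbb rose with Lamb3 (r = 0.39, adjusted limma p = 0.0106), but not within the 39 eyes (r = 0.28), without eyes 44 and 7 (r = 0.28) or without the eyes of corrected label. The summed level of the blood list ran from 3.71 to 90.2 CPM. Of 2 Muller glia and 4 myeloid genes none passed with any of the 3, and no gene of any list passed with Sdc4. The lens and pigment lists could not be named. The part of these tissues in the relations above was not tested.

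Among all 700 named genes of sufficient level, those most like each member were taken as the 5 with the largest and the 5 with the smallest r. For Lamb3 the largest were the Golgi matrix protein Golga2 (r = 0.72), rootletin (Crocc, 0.70), Ehbp1l1 (0.69), the purine synthesis enzyme Pfas (0.69) and the lipid transporter Abca3 (0.69). Crocc rose by 1.13 ± 0.16 (SE) log2 units per log2 unit of Lamb3, and its level ran from 178 to 1910 CPM. The smallest were Sh3bgr (-0.60), the splicing-complex assembly factor Clns1a (-0.60), the TFIIF subunit Gtf2f2 (-0.58), the actin-depolymerising destrin (Dstn, -0.56) and the ribosomal protein Rpl14 (-0.55). All 10, picked by their r in these same eyes, passed in limma (adjusted p from 5.9e-07 to 0.00018), as did 43.1% of all genes. After 5 components were removed the first 5 had r from 0.06 to 0.41.

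For Cldn16 the largest were Gpbp1 (r = 0.69), the protein phosphatase catalytic subunit Ppp1cb (0.68), the phosphatase Ptp4a1 (0.67), the helicase Dhx36 (0.65) and Oxr1 (0.65). The smallest were the vitamin transporter Slc5a6 (-0.58), megalin (Lrp2, -0.55), the arginine deiminase Padi2 (-0.53), the translation initiation factor Eif4g1 (-0.53) and the RNA helicase Ddx39b (-0.52). All 10, picked in the same way, passed in limma (adjusted p from 1.03e-06 to 0.000951), as did 31.6% of all genes. After 5 components were removed, r with the first 5 ran from -0.19 to 0.13.

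For Sdc4 the largest were the keratan sulphate proteoglycan lumican (Lum, r = 0.45), the zinc transporter Slc39a12 (0.45), the ornithine aminotransferase Oat (0.43), the transcriptional inhibitor Id2 (0.41) and Narf (0.41). None of these passed in limma (adjusted p = 0.739 for each). Their r after removal of 5 components ran from 0.36 to 0.54. The smallest were Dapl1 (-0.43), the kinetochore protein Knl1 (-0.34), Klhl14 (-0.34), Ndrg1 (-0.34) and Ccdc89 (-0.33), none of which passed either (adjusted limma p from 0.739 to 0.814). Without the 2 eyes farthest from the Sdc4 median, r was -0.26 for Dapl1 and -0.16 for Ndrg1.

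Genes lying near the members were examined last, within 0.5 Mb of each start. In all, 29 reached a median of 1 CPM, and permutation p-values were adjusted over these. The region of Sdc4 was crowded, with 58 gene starts, 25 of them at 0 in every eye, and none of the 20 measured neighbours passed (r from -0.18 to 0.36, median 0.10). Around Cldn16 there were 5 starts, and the 3 measured neighbours had r from 0.08 to 0.17.

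Around Lamb3, 2 of 6 measured neighbours passed. Over all genes 43.1% were related to Lamb3 in limma, which is another test than the permutations used for neighbours. Of the 13843 genes, 2310 had an r with Lamb3 beyond 0.5 in either direction. Camk1g, which encodes a calcium/calmodulin-dependent protein kinase, starts at position 112099336 of chromosome 13, 67.7 kb from Lamb3, and its level ran from 0.852 CPM through a median of 5.24 to 13.7. Its r with Lamb3 was 0.52 (permutation p = 0.00012, adjusted p = 0.00348) and its rho 0.53 (p = 0.0001, adjusted p = 0.0029). Without the 2 eyes farthest from the Lamb3 median r was 0.49, and it was 0.51 and 0.56 within the 39 and the 12 eyes. After 20 components were removed r was 0.64 (adjusted permutation p = 0.00029), and a test on the 29 degrees of freedom left gave an adjusted p of 0.0033. After 5 components it was 0.28. Both genes were chosen by the study as cis-eQTL genes, and the RefSeq table of GRCr8 has 0 coding genes between them. An unnamed gene at -266 kb, ENSRNOG00000046139, had r = 0.45 (permutation p = 0.00114, adjusted p = 0.0165), and 0.31 after 20 components (adjusted permutation p = 0.143).

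**Figure D5:**
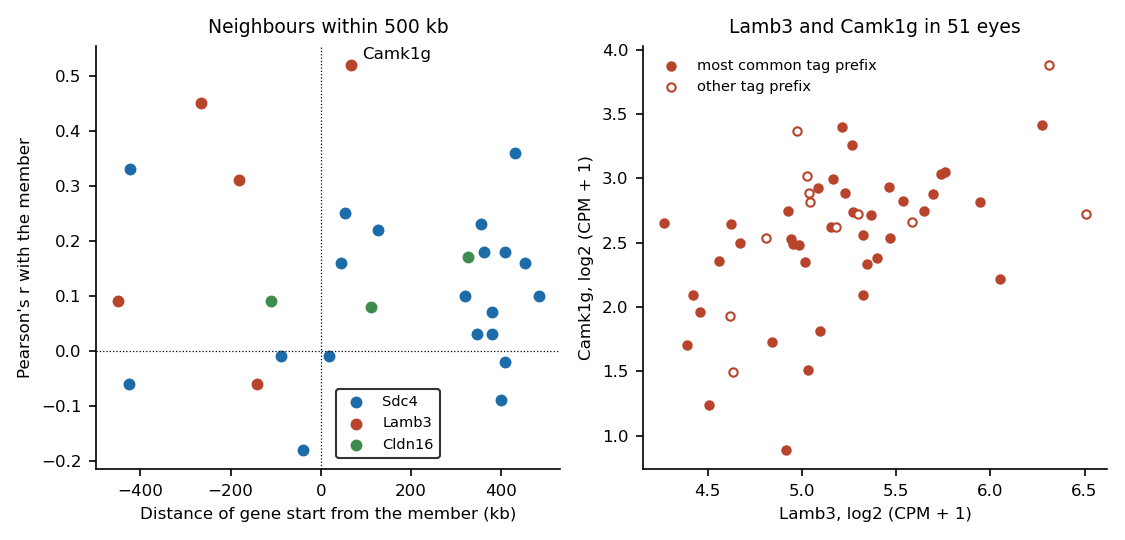
Left, Pearson's r of measured genes within 0.5 Mb with their member (n = 51), by the distance of their starts in kb along Rnor_6.0. Right, Lamb3 against Camk1g on the log2(CPM + 1) scale, 1 point per eye. Camk1g, 67.7 kb from Lamb3, has the largest r of the 29 (0.52), and its cloud rises in eyes of both tag groups.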

How the data were processed

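The authors aligned paired-end RNA-seq reads of whole rat eyes to Rnor_6.0 with STAR, matched eyes to DNA genotypes with GATK, and deposited, for 32576 genes, log2 of the RSEM expected count plus 1, with no scaling between eyes. No source used here gives the annotation or tool versions. The values themselves show the scale: after undoing it, whole numbers (to within 0.01) made up 89.8% of those from 0.5 to 50. The study's eQTL input was another unit, inverse normal TPM.

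The log2 was undone, counts were scaled to 1000000 per eye, and log2(CPM + 1) was used. Totals, from 9109084 to 42146827, set the precision. No 2 eyes were the same library (r between eyes from 0.851 to 0.984). Genes were named only by start positions in the study's cis-eQTL table, which paired 778 genes, 700 of them at a median of at least 1 CPM. All of these were called cis-eQTL genes in the same eyes. The members and lists were chosen with earlier results of these data known. Named genes are the members, listed genes, the 5 named genes with the largest and the 5 with the smallest r for each member, and named neighbours. The values of 1 such gene are not reported here.

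Each gene with a median of at least 1 CPM was fitted on each member's level with limma 3.58.1 (R 4.3.3), letting the prior variance follow the level, and Benjamini-Hochberg adjustment over all genes tested. Eyes were also compared by tag prefix and label status. Correlations across eyes have two-sided p-values from 100000 permutations. Principal components used inverse normal values of genes above 0 in any eye. Permutations after 20 components were removed treat the eyes as 51 free values, so a test on 29 degrees of freedom, chosen after seeing the data, stands beside them. The covariates of mitochondrial share, genes above 0 and component 1, the fits within the 39 eyes of the common tag prefix, the settings of the Lamb3 and Camk1g pair and the removal of 20 components from the neighbours were also added after seeing the data. Other alternatives changed scaling, pseudocount, gene filter, covariates and eyes. Upstream bases came from RefSeq (GRCr8), where all 3 members matched by symbol. The other tools were Python 3.11.15, pandas 2.3.3, scipy 1.17.1, matplotlib 3.10.9 and numpy 2.4.6, and the methods were tested on simulated data. In the simulation for limma, genes varied independently apart from the slopes given to them, so the effect of shared components was not tried.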

Additional observations from a re-analysis of the deposited data

How the results depend on the processing

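The correlation of Lamb3 with Camk1g kept its sign under the alternatives run. The majority sign among related genes turned for Lamb3 under median-of-ratios scaling. For Cldn16, where the split was near even, it turned under that scaling, with all genes above 0, with component 1 as a covariate, without the 3 deepest eyes, without eyes 7 and 50 and within the common tag prefix. On the values as deposited, with depth not removed, Sdc4 and Lamb3 had r = 0.54 (adjusted permutation p = 0.00027). With 5 components as covariates, 2 genes were related to Sdc4, 0 to Lamb3 and 0 to Cldn16 in limma. With component 1 as the covariate the counts were 0, 0 and 868. With the mitochondrial share as a covariate 0 genes were related to Cldn16, without the 2 eyes farthest from its median 2748, and within the common tag prefix 1817. The SD of Cldn16 on the log2 scale was 1.71 with a pseudocount of 0.1. After 20 components were removed, 1 neighbour passed for Sdc4 and 1 for Cldn16, and on 29 degrees of freedom 1 passed for Lamb3. Fewer eyes and covariates also leave less to test with, and the causes of these changes were not tested. Depth limits Cldn16 in the 4 eyes with at most 3 counts. No paired analysis was possible because the eyes form 1 group and carry no shared replicate numbers.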

Other observations

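The genes related to Sdc4 after 5 components were removed are not named in the sources used here and were chosen after their values were seen. ENSRNOG00000019763 rose by 1.13 ± 0.21 (SE) log2 units per log2 unit of Sdc4 (adjusted limma p = 0.0288), and ENSRNOG00000061845 had a slope of -0.60 ± 0.12 (SE; adjusted limma p = 0.0394).

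Of the neighbours, ENSRNOG00000026295, 39 kb before Sdc4, had r = -0.18 with it and -0.43 after 20 components were removed (adjusted permutation p = 0.0153), and on 29 degrees of freedom the adjusted p was 0.143. ENSRNOG00000055751, 326 kb from Cldn16, had r = 0.17 and 0.39 after 20 components (adjusted permutation p = 0.0322), and on 29 degrees of freedom the adjusted p was 0.214.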
